A study of Mus musculus with 4 samples.

Results

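The genes on either side of Mmp14 on mouse chromosome 14 were followed in mammary glands that lacked Mmp14 and in glands that kept it. The set was a fixed list of 60 genes around Mmp14. Of these, 55 had a probe set on the array that names a single gene, out of 17097 such genes on the whole array, and the brightest probe set was used for each. The other 5 were left out. Supt16 was named only on 2 probe sets that name several genes, and no probe set used here was named for Rbm23, Gmpr2, Myh6 or Jph4. Counted in protein-coding genes, the 55 reached 59 places before Mmp14, at Osgep, and 61 places after it, at Nfatc4. Places come from the gene order of the RefSeq table for GRCm38.p6.

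The series compared global Mt1-mmp(-/-) knockout mice with Mt1-mmp(+/+) littermates of an outbred Swiss Black background, 2 samples of each, at postnatal day 10. Mt1-mmp is the product of Mmp14. The intact inguinal mammary gland was used whole, so epithelium, fat, muscle, skin and blood cells could all give RNA, and fewer cells of a type cannot be told apart from less RNA per cell. The labels give no sex, no litter, no source strain of the targeted allele and no number of animals per sample, and call the 2 samples of a genotype biological replicates. Expression is given as RMA log2 values, in which 1 unit is a 2-fold difference, and every difference is knockout minus wild type.

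Mmp14 encodes a collagen-cleaving protease anchored in the cell membrane. A targeted allele is inherited together with the stretch of chromosome around it, because recombination rarely separates close neighbours. Homozygous knockouts can therefore share parental alleles of flanking genes that their wild-type littermates lack, and such alleles can change a gene's level or the fit of an array probe. The comparison asks whether differences between the genotypes gathered around Mmp14. With this design a linked allele and the loss of Mmp14 itself cannot be told apart.

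The arrays differed in tissue content and in the spread within a genotype. The 2 knockout arrays lay a median of 0.214 apart over 11078 tested genes, and the 2 wild-type arrays 0.0785. Mmp14 had 5.83 and 5.68 against 8.92 and 8.73 in knockout and wild-type arrays, a difference of -3.07 ± 0.12 (SE, n = 2 per group, limma adjusted p = 0.0738). Its dimmer probe set differed by -1.67, and whether either lies in the deleted part is not given. Skeletal muscle markers, 10 of 10 listed on the array, summed to 307 and 35242 linear units in the knockout arrays and 322 and 2519 in the wild-type arrays. Epidermis and hair follicle markers, 9 of 9, summed to 6268 and 219 against 370 and 1101. Luminal epithelial markers (8 of 8) and white adipocyte markers (4 of 6) had summed levels of 1875 to 2224 and 23410 to 27270 in the knockout arrays, and 748 to 1658 and 27894 to 28050 in the wild-type arrays, with Esr1 below the brightness minimum throughout. Means were higher in 7 and lower in 1 of the luminal genes, and higher in 1 and lower in 3 of the white adipocyte genes. Lep, a small part of the white adipocyte sums, had 6.95 and 4.48 in the knockout arrays, against 10.72 and 10.72. Brown adipocyte markers (5 of 6) had lower means in 5 of 5 genes, with sums of 6495 and 4166 against 12575 and 13239, and erythroid markers (4 of 4) in 4 of 4, with sums of 9368 and 10567 against 13157 and 13001. No gene was left at 0, since RMA gives a positive value to each. The part of these tissues in the differences given here was not tested.

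Most flanking genes differed little between the genotypes, and the few larger differences were not next to Mmp14. Of the 55 genes, 46 reached the brightness minimum of 4.94, the median over all probe sets, and were tested. Among these, 27 had both knockout arrays on the same side of both wild-type arrays, 13 higher and 14 lower, or 58.7%. The share over all 11078 tested genes was 58.8% (26.3% higher and 32.5% lower), close to that of the flanking genes. Their median difference was 0.02, against -0.02 over all tested genes. Their median size of difference was 0.22, against 0.21. Only Rnase2a, Dhrs1 and Ndrg2, or 6.52%, were at least 1.5-fold apart, against 13.5% of all tested genes (5.99% higher and 7.49% lower). Only Rnase2a, or 2.17%, was at least 2-fold apart, against 4.29% (1.98% higher and 2.31% lower). For differences of that size without overlap the background was 11.5% at 1.5-fold and 3.33% at 2-fold.

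No flanking gene passed the test. With limma and Benjamini-Hochberg adjustment over all genes, 0 of 46 were called higher and 0 lower at 0.05, where 0.0% of all genes were called in either direction and the lowest adjusted p was 0.0738. At an unadjusted p under 0.05 there were 11 of the 46, 5 higher and 6 lower, or 23.9%, against 21.8% of all tested genes (9.69% higher and 12.1% lower). Rnase2a had the lowest adjusted p of the 46 and was the only flanking gene under 0.10, where 0.153% of all genes lay. The next lowest was Pck2 at 0.121. The outcome depended on which arrays were kept. Without knockout replicate 1 limma called 24 of the 46, 8 higher and 16 lower, or 52.2%, beside 37.7% of all genes. Without knockout replicate 2 it called Efs and Pck2 higher and Rnase2a lower, or 6.52%, beside 11.7% of all genes. Without either wild-type array it called 0 of the 46, beside 0.0% of all genes. The fits with a single array of a genotype take its spread from the other pair.

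**Figure D1:**
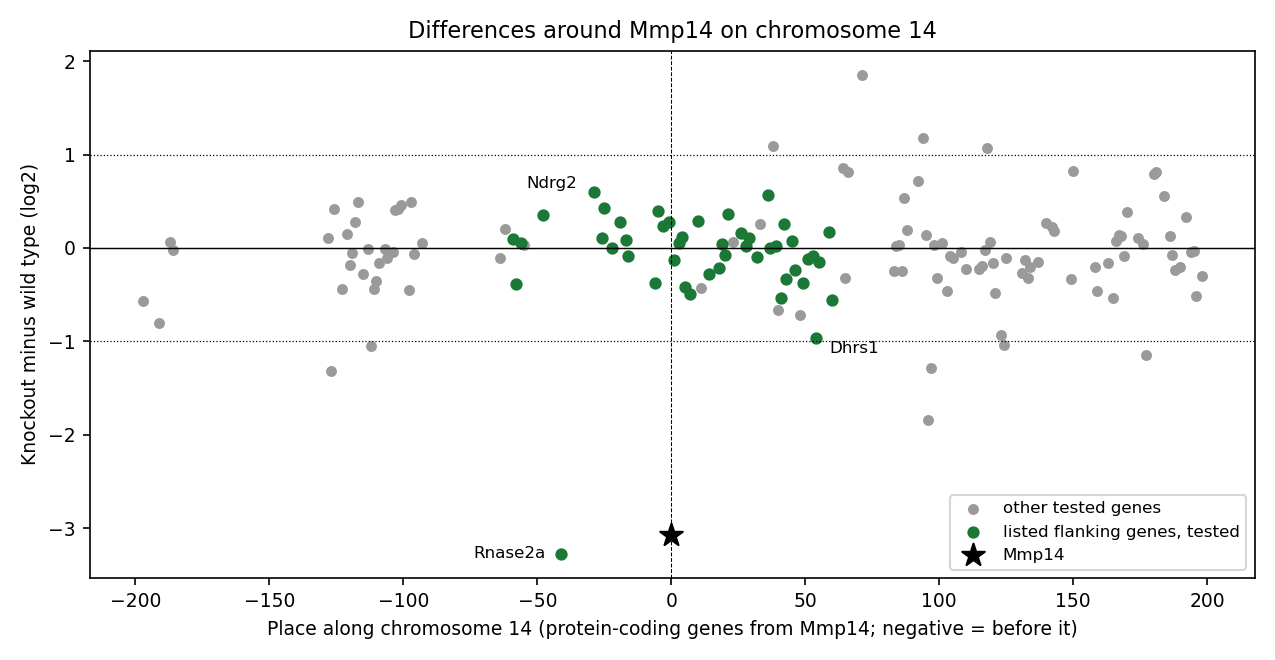
Each point is a tested gene within 200 protein-coding genes of Mmp14 on chromosome 14, placed by gene order on the x axis, with the mean difference between 2 knockout and 2 wild-type arrays (log2) on the y axis. Green points are the listed flanking genes and dotted lines mark a 2-fold difference. Apart from Mmp14 at -3.07 and Rnase2a at -3.27, the listed genes lie between -0.96 and 0.59.

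The closest neighbours differed by small amounts. Within 10 protein-coding genes of Mmp14 all 10 tested genes were on the list, and 8 of them did not overlap between the genotypes, 5 higher and 3 lower, beside 58.8% of all tested genes. At an unadjusted p under 0.05 there were 5 of the 10, and 31.8% of the 22 tested genes within 25 places, against 21.8% of all tested genes. These differences between shares were not tested, and Slc7a7 and Rem2, 2 places away on either side, were too dim to enter. The median size of difference over the 10 was 0.28, and none of them was at least 1.5-fold apart. In the order of the chromosome they were Dad1 (lower), Abhd4, Oxa1l and Mrpl52 (higher) before Mmp14, then Lrp10 (overlapping), Prmt5 (higher), Haus4 (overlapping), Ajuba and Psmb5 (lower) and Acin1 (higher) after it. Higher and lower genes were thus mixed on both sides, though Dad1 was the only lower one before Mmp14. Over all tested flanking genes, 12 of 16 before Mmp14 had higher means and 13 of 30 after it, beside 46.5% of all tested genes. This difference between the sides was not tested.

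Mrpl52, a protein of the mitochondrial ribosome and the gene directly before Mmp14, had 9.84 and 9.80 in the knockout arrays, against 9.49 and 9.58 in the wild-type arrays. The difference was 0.28 ± 0.10 (SE, n = 2 per group, limma adjusted p = 0.216), and its 2 other bright probe sets gave 0.31 and 0.32. Oxa1l, which inserts proteins into the inner mitochondrial membrane, had 8.29 and 8.27 against 7.97 and 8.13 (0.23 ± 0.10). Its second bright probe set differed by only 0.05. Abhd4, a lipase of N-acyl phospholipids, had 10.51 and 10.77 against 10.22 and 10.27 (0.39 ± 0.13), and its other probe set gave 0.43. Dad1, a subunit of the complex that attaches sugar chains to new proteins, had 10.63 and 10.47 against 10.97 and 10.88 (-0.37 ± 0.11). For these 4 genes each knockout array lay outside the wild-type range, and the differences were 0.23 to 0.39 in size.

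On the other side, Lrp10, a receptor of the LDL receptor family directly after Mmp14, had 9.08 and 9.32 in the knockout arrays, against 9.34 and 9.31 in the wild-type arrays, so the genotypes overlapped. Prmt5, an arginine methyltransferase, had 7.21 and 7.16 against 7.14 and 7.11 (0.05 ± 0.09) without overlap. Ajuba, a LIM-domain adaptor at cell junctions, had 8.18 and 8.21 against 8.67 and 8.56 (-0.42 ± 0.10, adjusted p = 0.152). Both knockout arrays of Ajuba were within 0.03 of each other. Psmb5, a catalytic subunit of the proteasome, had 9.89 and 9.68 against 10.31 and 10.24 (-0.49 ± 0.12, adjusted p = 0.157). This 1.41-fold difference was the largest among the 22 tested genes within 25 places of Mmp14. Acin1, a splicing-associated protein, had 8.51 and 8.76 against 8.36 and 8.34 (0.28 ± 0.13).

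The median size of differences had little relation to the number of places from Mmp14. Places count genes, and distance in bases or in recombination was not used. Whether genes in these bins carried linked alleles was not tested. Over the 22 tested genes at 1 to 25 places the median size was 0.25, over 21 genes at 26 to 50 places 0.26, over 33 at 51 to 100 places 0.25, over the next 75 up to 200 places 0.22, and over 196 farther ones 0.21. On all other chromosomes it was 0.21 over 10678 genes. The share without overlap ran 63.6%, 57.1%, 60.6%, 66.7% and 62.2% over the same 5 bins and was 58.7% elsewhere. The share at least 1.5-fold apart ran 0.0%, 23.8%, 24.2%, 13.3% and 13.8%, against 13.4% elsewhere. The nearest bin thus held none of the larger differences. Across the 347 tested and placed genes of chromosome 14 the size of difference and the number of places from Mmp14 had a Spearman rank correlation of -0.0043. Genes are not independent, all values came from the same 4 arrays, and no p is given. The value of the nearest bin depended on the setting, and it lay below that of the other chromosomes in 2 of 12 settings. It was 0.14 with the mean of each gene's probe sets, where other chromosomes gave 0.18. With no brightness minimum, which adds dim genes, it was 0.089, where they gave 0.13. In the remaining settings it lay above them, as after quantile normalisation with 0.28 against 0.21.

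**Figure D2:**
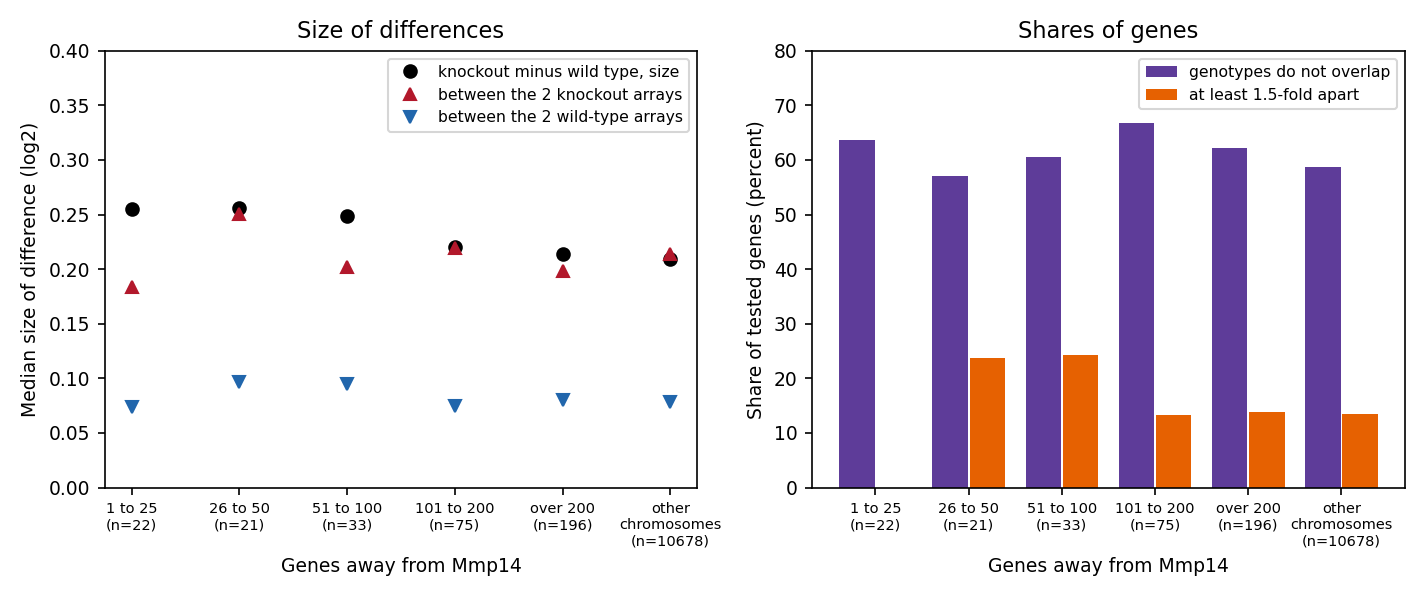
Tested genes are grouped by places from Mmp14, with all other chromosomes at the right. The left panel shows the median size of the knockout minus wild-type difference and of the gap between the 2 arrays of each genotype (log2), and the right panel the percent of genes whose genotypes do not overlap or that are at least 1.5-fold apart. No gene at 1 to 25 places is 1.5-fold apart, and the shares without overlap lie between 57.1% and 66.7%.

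Chromosome 14 without Mmp14 did not stand at the top of the genome. Its 355 tested genes had a median size of difference of 0.22, which ranked 5 among 20 chromosomes, between 0.19 on chromosome 10 and 0.23 on chromosome 3. The share without overlap was 62.5%, which ranked 2, next to 62.6% on chromosome 6. At least 2-fold apart were 5.35% of its genes, which ranked 4, against 6.86% on chromosome 13. These ranks describe the chromosomes on these 4 arrays and were not tested.

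**Figure D3:**
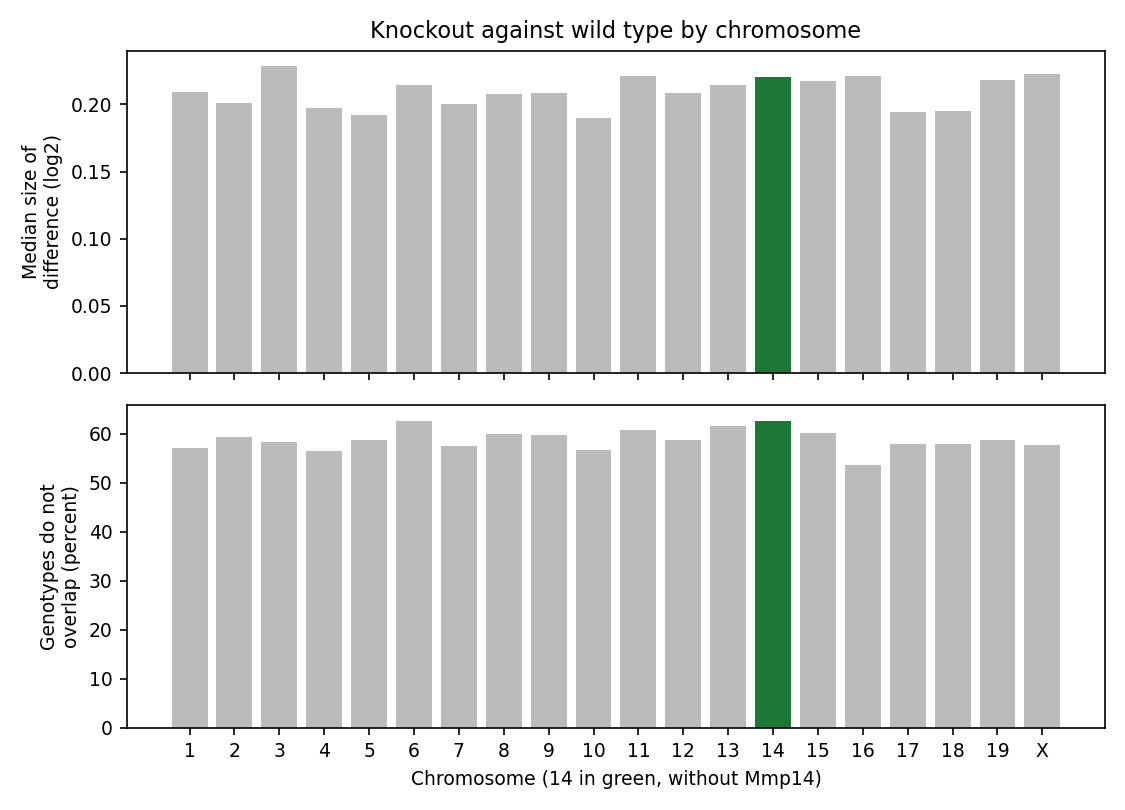
Bars give, for the tested genes of each chromosome, the median size of the knockout minus wild-type difference (log2, top) and the percent of genes whose genotypes do not overlap (bottom). Chromosome 14, in green and without Mmp14, reaches 0.22 and 62.5%, within the range of the other chromosomes.

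The ribonuclease genes held the largest difference among the flanking genes. Rnase2a, 41 places before Mmp14, belongs to the rodent family of eosinophil-associated ribonucleases and is also called Ear11. Its only single-gene probe set had 4.35 and 3.99 in the knockout arrays, against 7.497 and 7.39 in the wild-type arrays. Both knockout arrays lay below the brightness minimum of 4.94 and both wild-type arrays above it, with no overlap. The difference was -3.27 ± 0.16, or 9.67-fold (SE, n = 2 per group, limma adjusted p = 0.0738, not passing 0.05), and RMA compresses low values, so the fold is best read as a lower limit. Rnase2a reached the brightness minimum only through its wild-type arrays, so a difference was built into its passing the filter. With an array left out it lay between -3.46 and -3.09, with adjusted p from 0.0033 without knockout replicate 1 to 0.650 without wild-type replicate 2, on either side of the threshold.

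Apart from Rnase4, which is given below, relatives of Rnase2a on the array had dim means or, for Ear3, were also lower. They differed in direction. Rnase2b, Ear14 and Ang2, which lie 44, 42 and 43 places from Mmp14, stayed below 4.94 on all arrays, with differences of -0.10, 0.05 and -0.05. Ang5, 141 places away, was also dim and lower without overlap (-0.38). Rnase1, 45 places away, had 4.87 and 5.31 in the knockout arrays, against 4.68 and 4.48 in the wild-type arrays. It was thus higher without overlap (0.51), but its mean was below the minimum and it was not tested. Ear3, a relative with no place in the RefSeq table used, had 6.40 and 5.75 in the knockout arrays, against 7.17 and 8.02 in the wild-type arrays (-1.52 ± 0.39, limma adjusted p = 0.168). Its second probe set had 5.09 and 4.45 in the knockout arrays, against 6.24 and 7.16 in the wild-type arrays (-1.93), again without overlap. Both Ear3 probe sets carry the suffix for possible matches to several transcripts, so their signal cannot be given to a single gene with certainty. The Ear3 wild-type arrays differed from each other by 0.85, where those of Rnase2a differed by 0.11. The eosinophil markers Prg2, Epx, Siglecf and Il5ra were below the brightness minimum on all 4 arrays. The whole eosinophil and neutrophil list, 8 of 8, summed to 1500 and 316 in the knockout arrays against 746 and 603 in the wild-type arrays. Most of each sum came from the neutrophil members S100a8, S100a9, Ngp and Camp, so it says little about eosinophils. Macrophage markers had a median difference of -0.41, with lower means in 6 of 6 genes, and summed to 1436 and 1526 in the knockout arrays against 1789 and 2071 in the wild-type arrays. The part of these cells in the Rnase2a difference was not tested.

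Rnase4 and Ang, a pair of secreted ribonucleases 48 and 49 places before Mmp14, share a transcription start in RefSeq. Rnase4 had 11.21 and 11.82 in the knockout arrays, against 11.21 and 11.11 in the wild-type arrays and overlapped (0.35 ± 0.24). Its higher mean came from knockout replicate 2. Ang, the vessel-promoting ribonuclease angiogenin, was dim, with 4.37 and 4.45 against 4.51 and 4.50 (-0.09), and was not tested. Of 2 Rnase4 windows in the RefSeq table, 1 is identical to the single Ang window. The window shared by the pair and the window of Rnase2a are shown because neighbours of the same family differed so unequally. Each holds 250 bases before the start and 50 after it (GRCm38.p6, Rnase4 and Ang at chr14:51090827-51091126, plus strand, Rnase2a at chr14:51256063-51256362, minus strand), 5′ to 3′. Capitals mark a match to TGATGNAA on the opposite strand, described with Pck2.
Rnase4 and Ang: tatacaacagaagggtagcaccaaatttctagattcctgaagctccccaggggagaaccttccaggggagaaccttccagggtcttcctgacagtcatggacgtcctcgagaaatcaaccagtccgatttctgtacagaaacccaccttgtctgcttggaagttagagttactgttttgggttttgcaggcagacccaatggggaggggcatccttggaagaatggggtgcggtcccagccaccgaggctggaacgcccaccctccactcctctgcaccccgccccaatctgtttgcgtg
Rnase2a: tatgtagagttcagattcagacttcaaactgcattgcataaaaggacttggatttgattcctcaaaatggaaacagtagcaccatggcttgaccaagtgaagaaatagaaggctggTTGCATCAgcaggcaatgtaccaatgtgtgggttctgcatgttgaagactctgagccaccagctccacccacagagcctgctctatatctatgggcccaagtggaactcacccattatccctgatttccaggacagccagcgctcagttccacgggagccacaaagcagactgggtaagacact

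**Figure D4:**
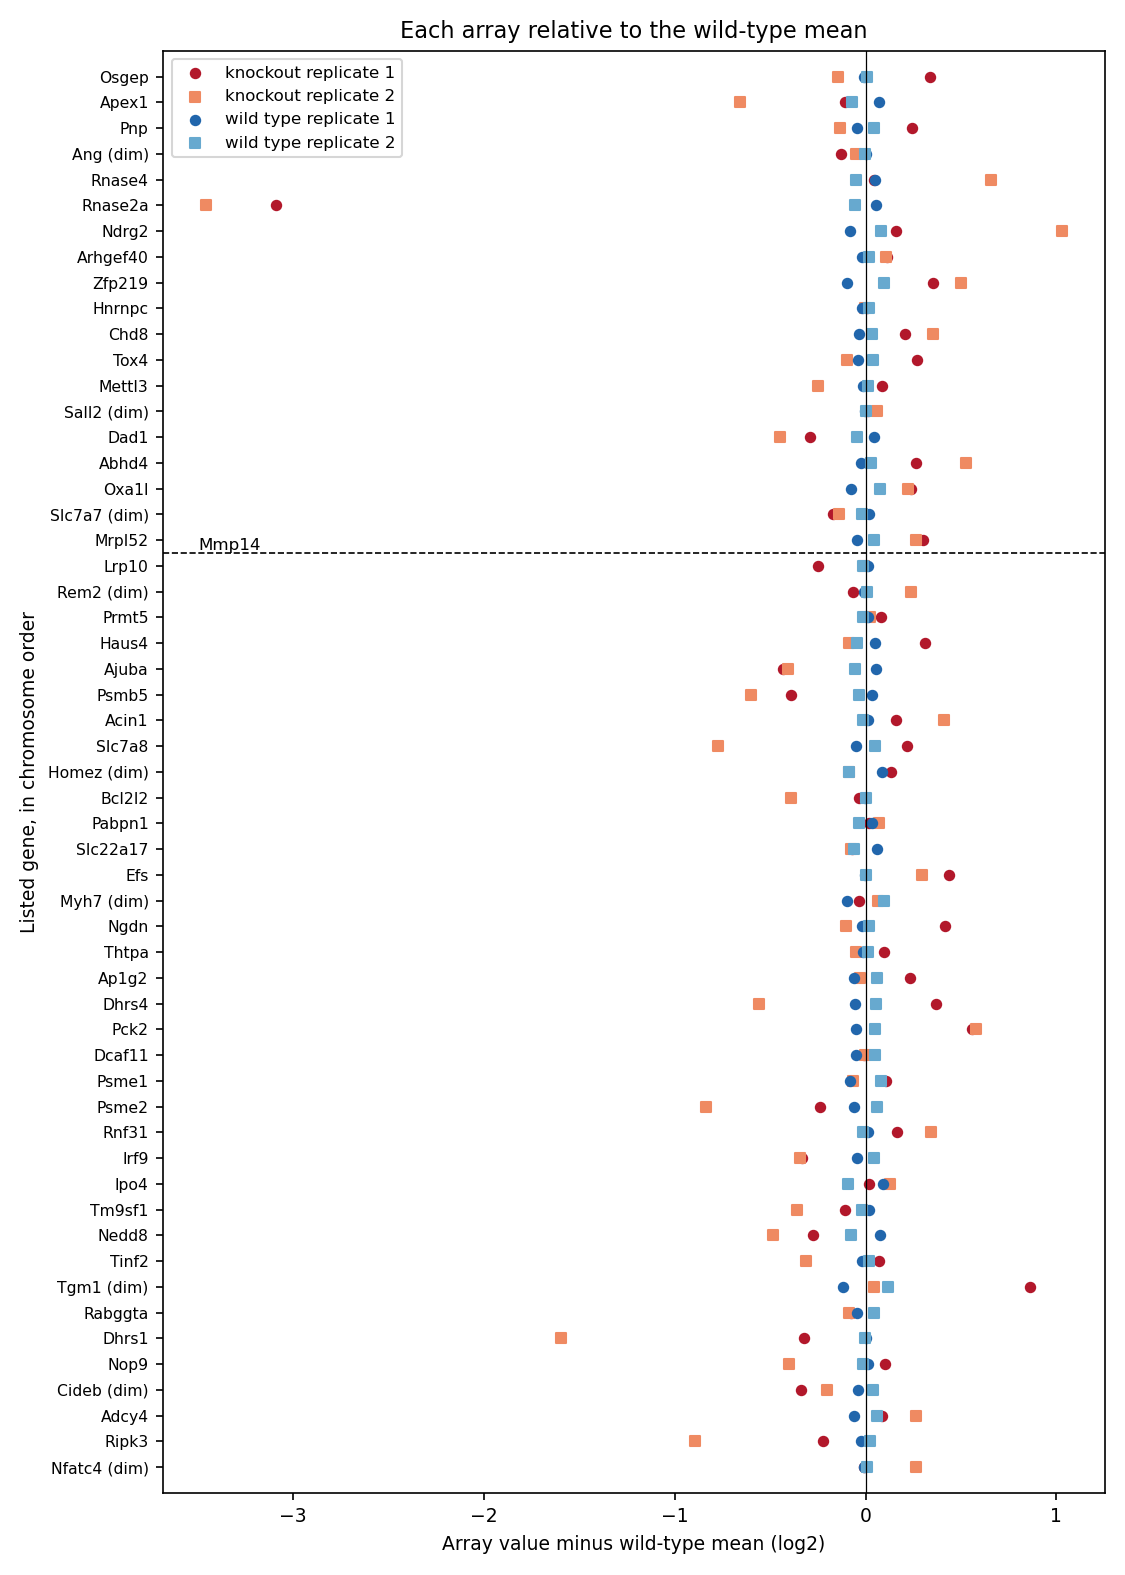
Rows are the 55 flanking genes in chromosome order, with the place of Mmp14 as a dashed line, and points are the 4 arrays, each minus the mean of the wild-type arrays for that gene (log2). Genes marked dim were below the brightness minimum and not tested. Knockout replicate 2 lies farthest from zero for many genes, and Rnase2a stands alone at -3.09 and -3.46.

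Genes of the proteasome, ubiquitin-like modifiers and innate immunity had a median difference of -0.36, where the median of all tested genes was -0.02. All 8 were tested, and 5 were lower without overlap, 1 higher and 2 overlapping, beside 32.5% lower and 26.3% higher of all tested genes. None passed the test. Psmb5 is given above. Nedd8, the ubiquitin-like activator of cullin ligases, had 10.04 and 9.83 in the knockout arrays, against 10.39 and 10.24 in the wild-type arrays (-0.38 ± 0.13, adjusted p = 0.215). Ripk3, the kinase of necroptosis, had 6.11 and 5.44 against 6.31 and 6.36 (-0.56 ± 0.26), and most of the 1.47-fold difference came from knockout replicate 2. Rnf31, the catalytic subunit of the linear ubiquitin ligase, was the higher one at 5.54 and 5.72 against 5.39 and 5.36 (0.25 ± 0.11). Dcaf11, a substrate receptor of a cullin ligase, overlapped, with 8.72 and 8.72 against 8.67 and 8.77 and a difference of -0.0049 ± 0.09. Its other bright probe set was higher by 0.07 without overlap.

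Psme1 and Psme2, 39 and 41 places after Mmp14, encode partner subunits of the PA28 proteasome activator, yet differed unequally. Psme1 had 11.004 and 10.83 in the knockout arrays, against 10.81 and 10.98 in the wild-type arrays, a difference of 0.02 ± 0.12 with overlap. Psme2 had 10.98 and 10.38 against 11.15 and 11.28 (-0.54 ± 0.24, adjusted p = 0.286), with both knockout arrays below the wild-type range and replicate 2 farther below. Irf9, the DNA-binding subunit of the interferon-activated complex ISGF3, lies 43 places after Mmp14 and had 6.27 and 6.26 against 6.56 and 6.64 (-0.34 ± 0.09, adjusted p = 0.18). The Irf9 arrays of each genotype were within 0.09 of each other. Other interferon response genes, 7 of 10 listed on the array, all had lower means, at a median difference of -0.43. They summed to 341 and 368 in the knockout arrays and 765 and 767 in the wild-type arrays, and Mx1 and Usp18 were below the brightness minimum throughout. Most of the gap between the sums came from Rsad2, with 7.04 and 7.19 against 8.98 and 8.87, while Irf7 and Mx1 differed by -0.18 and -0.10. Their part in the Irf9 and Psme2 values was not tested.

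The windows around the starts of Psme1, Psme2 and Irf9 are shown because interferon is a known inducer of all 3 genes while their differences were unequal (GRCm38.p6, Psme1 at chr14:55578244-55578543, plus strand, Psme2 at chr14:55591052-55591351, minus strand, Irf9 at chr14:55603735-55604034, plus strand). They were searched on both strands for the core of the interferon-stimulated response element, written as GAAA, any 2 bases and GAAA again. Capitals mark a match.
Psme1: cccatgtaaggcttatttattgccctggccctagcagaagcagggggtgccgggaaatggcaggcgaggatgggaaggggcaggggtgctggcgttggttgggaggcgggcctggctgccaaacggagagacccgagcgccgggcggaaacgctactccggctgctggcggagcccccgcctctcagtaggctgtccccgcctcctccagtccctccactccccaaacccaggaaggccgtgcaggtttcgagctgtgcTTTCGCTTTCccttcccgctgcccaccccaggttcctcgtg
Psme2: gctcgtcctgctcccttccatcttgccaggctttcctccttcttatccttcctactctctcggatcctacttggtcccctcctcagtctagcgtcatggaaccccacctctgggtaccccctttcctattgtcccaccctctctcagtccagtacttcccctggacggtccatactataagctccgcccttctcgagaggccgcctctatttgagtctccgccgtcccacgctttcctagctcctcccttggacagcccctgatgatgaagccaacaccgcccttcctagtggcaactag
Irf9: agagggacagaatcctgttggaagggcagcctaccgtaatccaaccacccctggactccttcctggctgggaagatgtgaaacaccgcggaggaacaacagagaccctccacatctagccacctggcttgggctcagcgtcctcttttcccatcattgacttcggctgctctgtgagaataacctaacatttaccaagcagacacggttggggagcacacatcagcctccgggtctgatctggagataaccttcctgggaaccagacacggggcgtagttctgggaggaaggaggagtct
Psme1 held 1 match, at window bases 260 to 269, on the opposite strand and just after the start. Neither of the 2 windows of Psme2 nor of the 2 of Irf9 held these letters. Of all 32851 windows 3.44% held the motif, and of the 76 windows of the flanking genes 2.63%, those of Psme1 and Tgm1. A match is a description of the letters and not of binding.

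Of 6 metabolic genes tested, 2 were higher and 1 lower without overlap and 3 overlapped, where 58.8% of all tested genes did not overlap. Pck2, the mitochondrial enzyme that makes phosphoenolpyruvate, lies 36 places after Mmp14 and had 8.42 and 8.44 in the knockout arrays, against 7.82 and 7.91 in the wild-type arrays. The difference was 0.57 ± 0.10, or 1.48-fold (SE, n = 2 per group, limma adjusted p = 0.121). The arrays within each genotype were within 0.10 of each other, and both knockout arrays were above both wild-type arrays. Dhrs1, a short-chain dehydrogenase, had 8.47 and 7.20 against 8.80 and 8.79 (-0.96 ± 0.46, 1.95-fold, adjusted p = 0.315). The knockout arrays of Dhrs1 lay 1.27 apart, and the difference was -0.32 without knockout replicate 2 and -1.60 without knockout replicate 1. Dhrs4, its relative 32 places after Mmp14, had 9.85 and 8.92 against 9.42 and 9.53 and overlapped, with knockout replicate 1 above and replicate 2 below the wild-type arrays. A second Dhrs4 probe set repeated that split, with 8.73 and 7.45 against 8.57 and 8.4997.

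Pnp, of purine salvage, and Thtpa, which cleaves thiamine triphosphate, both overlapped, with differences of 0.05 and 0.02. In the window of Pck2 (chr14:55540016-55540315, plus strand) the core of the ATF4 amino acid response element, TGATGNAA, was searched on both strands, since Pck2 is a known target of that stress factor in cultured cells. It is shown for its single match in capitals, at bases 148 to 155 on the opposite strand.
Pck2: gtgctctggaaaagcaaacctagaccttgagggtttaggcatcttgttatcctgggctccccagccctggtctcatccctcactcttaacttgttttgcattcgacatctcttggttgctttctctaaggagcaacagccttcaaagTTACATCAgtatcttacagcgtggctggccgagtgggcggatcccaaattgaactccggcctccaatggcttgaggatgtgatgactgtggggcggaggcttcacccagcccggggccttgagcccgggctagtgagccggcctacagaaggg
Of all 32851 windows 3.97% held this motif, and of the 76 windows of the flanking genes 5, or 6.58%, which belonged to Pck2, Rnase2a, Rem2 and Slc7a7. Of these, Pck2 was higher and Rnase2a lower, and Rem2 and Slc7a7 were dim.

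Nuclear genes formed the largest group. Of 13 tested, 4 were higher and 1 lower without overlap and 8 overlapped, where 58.8% of all tested genes did not overlap, with a median size of difference of 0.12, against 0.21 over all tested genes. Hnrnpc, which packages new transcripts, had 11.11 and 11.10 in the knockout arrays, against 11.08 and 11.12 in the wild-type arrays, a difference of 0.0024 ± 0.09, the smallest of all flanking genes. Its second bright probe set was lower, at -0.12 without overlap, so the 2 probe sets disagreed in sign. Pabpn1, the nuclear poly(A)-binding protein, had 11.78 and 11.83 against 11.797 and 11.73 (0.04). Mettl3, the catalytic subunit of the RNA N6-methyladenosine writer, had 7.25 and 6.92 against 7.15 and 7.18 (-0.08) and overlapped. Zfp219, a zinc finger protein, had 7.41 and 7.56 against 6.96 and 7.16 (0.43 ± 0.12, adjusted p = 0.188), and was the highest of the group. Chd8, a chromatin remodeller, had 8.28 and 8.43 against 8.04 and 8.11 (0.28 ± 0.11). Apex1, the base excision repair endonuclease, was the lower one with 8.496 and 7.94 against 8.68 and 8.53 (-0.38 ± 0.22), mostly in knockout replicate 2. The telomere protein gene Tinf2 (-0.12), the ribosome assembly gene Nop9 (-0.15), Ngdn (0.16), Tox4 (0.09) and the tRNA-modifying gene Osgep (0.10) overlapped. A second bright probe set of Ngdn was higher by 0.35 without overlap. Those of Tinf2, Tox4 and Osgep gave 0.06, -0.07 and -0.09, opposite in sign to the brightest ones.

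Signalling, adhesion and survival genes included 4 higher and 2 lower without overlap and 1 overlapping among 7 tested, where 58.8% of all tested genes did not overlap (26.3% higher and 32.5% lower). Ndrg2, a stress- and differentiation-linked gene 29 places before Mmp14, had 9.45 and 10.32 in the knockout arrays, against 9.21 and 9.37 in the wild-type arrays (0.59 ± 0.33, 1.51-fold, adjusted p = 0.364). Most of it came from knockout replicate 2, the array with muscle markers at 35242, and without that array the difference was 0.16. Efs, an adaptor of the Cas family, had 8.35 and 8.20 against 7.91 and 7.91 (0.37 ± 0.10, adjusted p = 0.181), with wild-type arrays within 0.01 of each other. Adcy4, an adenylyl cyclase, had 6.04 and 6.22 against 5.90 and 6.02 (0.17) and Arhgef40 7.05 and 7.05 against 6.92 and 6.96 (0.11). All 4 bright Arhgef40 probe sets had higher means, by 0.04 to 0.13. Bcl2l2, an anti-apoptotic protein, had 8.20 and 7.84 against 8.23 and 8.24 (-0.21), but its 2 other bright probe sets gave 0.08 and 0.02. Haus4, a spindle protein, overlapped (0.11).

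Transport and organelle genes gave 2 higher, 4 lower and 4 overlapping among 10 tested, close to the 58.8% of all tested genes without overlap, with differences from -0.37 to 0.28. Besides the near neighbours given above, Tm9sf1, a membrane protein of the secretory route, had 8.71 and 8.46 against 8.84 and 8.80 (-0.23). The Rab prenylation gene Rabggta (-0.08) and the lipocalin receptor gene Slc22a17 (-0.07) were lower by less than 0.1, while the nuclear import gene Ipo4 (0.07) and the vesicle coat gene Ap1g2 (0.10) overlapped. The amino acid carriers Slc7a8 and Slc7a7 lie on opposite sides of Mmp14. Slc7a8, for neutral amino acids, had 6.35 and 5.36 in the knockout arrays, against 6.08 and 6.18 in the wild-type arrays, so the knockout arrays lay on opposite sides of the wild-type pair. Slc7a7, for cationic amino acids, was dim with 4.81 and 4.84 against 4.999 and 4.96 (-0.15).

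The 9 dim genes were Ang, Sall2, Slc7a7, Rem2, Homez, Myh7, Tgm1, Cideb and Nfatc4, with means from 4.32 to 4.92. Of these 1 was higher and 3 lower without overlap and 5 overlapped, where 50.1% of all 17097 genes on the array, dim ones included, did not overlap. That share comes mostly from the 11078 brighter genes, at 58.8%, so it is too high to stand for dim genes alone. Tgm1, the transglutaminase that crosslinks the skin barrier, had 5.18 and 4.37 in the knockout arrays, against 4.20 and 4.44 in the wild-type arrays. Only knockout replicate 1 was high, the array in which epidermis and hair follicle markers summed to 6268. Myh7, the slow muscle and cardiac myosin, had 4.88 and 4.98 against 4.82 and 5.01, so all 4 arrays lay close to the minimum and the genotypes overlapped, with skeletal muscle markers at 35242 in knockout replicate 2. The slow and cardiac list, 6 of 6, summed to 142 and 622 in the knockout arrays against 140 and 148 in the wild-type arrays, and its members Myl2, Myl3, Tnnt1 and Tnnc1 were below the minimum on all arrays. Most of the 622 came from the single gene Actc1, with 4.60 and 8.94 in the knockout arrays, against 4.87 and 4.90 in the wild-type arrays. Cideb, a lipid droplet protein, had 4.59 and 4.73 against 4.89 and 4.97 (-0.27).

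**Figure D5:**
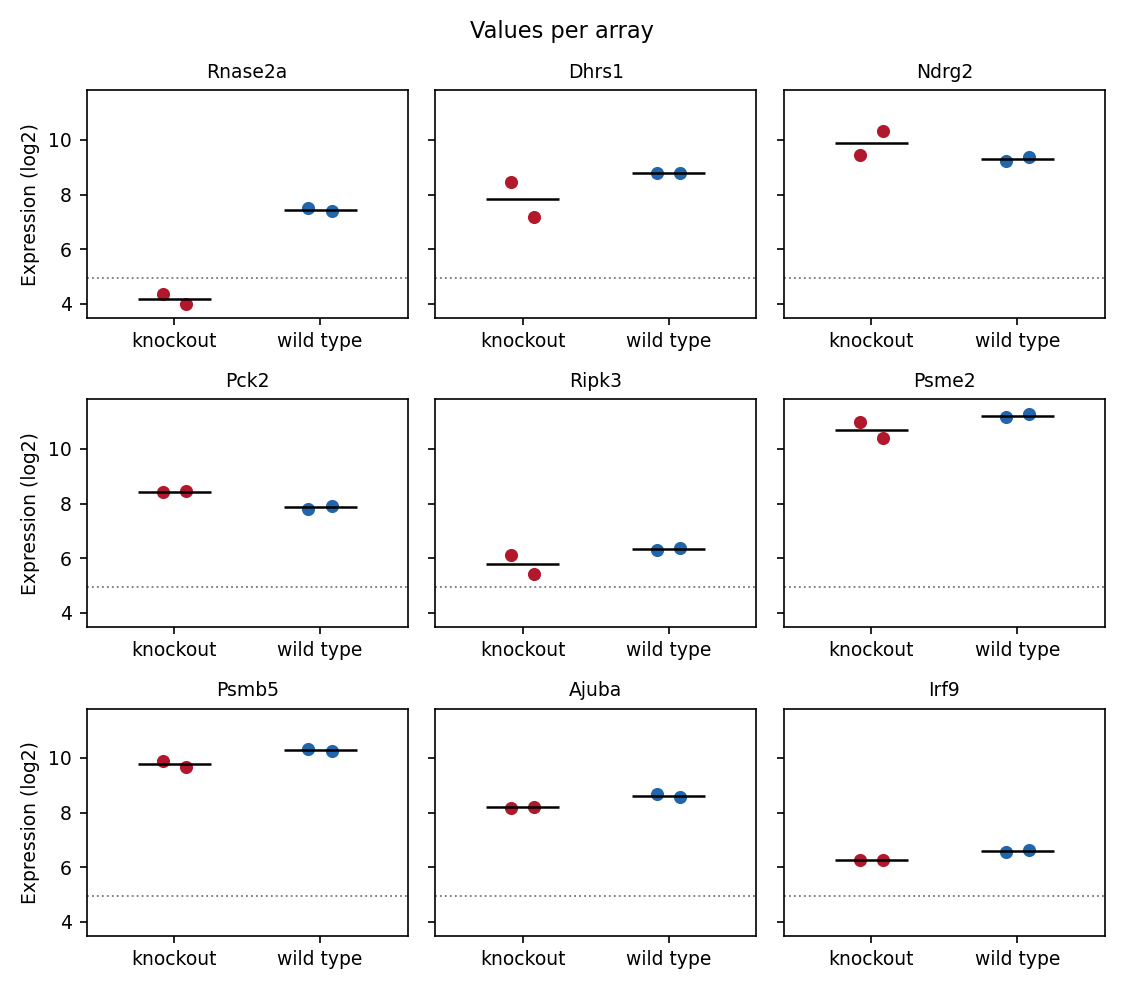
Points are the 2 arrays of each genotype, lines their means, and the dotted line the brightness minimum, for 9 flanking genes on a shared log2 axis. Rnase2a lies at 4.35 and 3.99 in the knockout arrays, below the minimum, while the other 8 genes differ by less than 1 unit.

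The knockout arrays often disagreed with each other. In 33 of the 46 tested flanking genes the knockout arrays lay farther apart than the wild-type arrays. In 10 genes, or 21.7%, they lay more than 0.5 apart, against 17.7% of all tested genes, while this held for 0 genes in the wild-type pair, where the widest gap was 0.20, against 2.42% of all tested genes. In 14 genes, or 30.4%, they lay on opposite sides of the wild-type mean, against 30.1% of all tested genes. Of 14 genes with several bright probe sets, 8 had the same sign in all of them and 12 agreed within 0.2, with the widest range of 0.35 in Dhrs4.

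Genes that were not on the list also differed, inside the flank and beyond it. Chosen after their values were seen, Fitm1, 38 places after Mmp14, differed by 1.09 with overlap, and Emc9 and Mdp1, 40 and 48 places after it, by -0.67 and -0.72 without overlap. By the rule for naming neighbours within 200 places, the highest without overlap was Mcpt4, a mast cell protease 71 places after Mmp14, with 9.19 and 9.16 in the knockout arrays, against 7.39 and 7.25 in the wild-type arrays (1.85 ± 0.10, adjusted p = 0.0762). Mast cell markers, which include Mcpt4, had higher means in 6 of 6 genes and summed to 3329 and 3913 in the knockout arrays against 2046 and 1705 in the wild-type arrays. Cryl1 (1.18), Shisa2 (1.07), Khnyn (0.85) and the squalene synthase gene Fdft1 (0.83) followed. The lowest without overlap were the cytokine gene Il17d (-1.84), the prostaglandin receptor gene Ptger2 (-1.31), the lysine methyltransferase gene Eef1akmt1 (-1.28), Samd4 (-1.05) and C1qtnf9 (-1.04). All 10 lay at least 64 places from Mmp14, and none passed the test, with adjusted p from 0.0762 to 0.412. Shisa2 reached the brightness minimum only through its knockout arrays and Ptger2 only through its wild-type arrays. A difference was thus built into the passing of both genes.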

How the data were processed

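RNA from 4 samples of mouse mammary gland was hybridised to 1 Affymetrix expression array each. Per the submitters' processing notes, the authors used RMA, from the affy package, to make the deposited log2 values, and no version is given. RMA corrects background, equalises array distributions and summarises each probe set. No source states the scale, and log2 was inferred from a range of 3.16 to 13.7. The number of arrays limits the precision.

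Of 45141 probe sets, 28898 named a single gene in the array annotation, 551 several and 15692 none. Gene identifiers of 28689 matched the RefSeq table for GRCm38.p6, which gave chromosome and gene order only. The brightest probe set stood for each gene. The 11078 genes at or above 4.94 entered a limma fit (version 3.58.1, R 4.3.3, lmFit, eBayes, no covariate, Benjamini-Hochberg at 0.05). The procedure was also run on simulated data with equal spread in both genotypes. It therefore does not cover the unequal spread of these arrays. SE is limma's moderated standard error.

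Members, lists, bins and tests were chosen with earlier results of these data known. The rule named Mmp14, all listed genes, and the 5 higher and 5 lower neighbours with the largest differences and no overlap within 200 protein-coding genes. Values per array are given for genes at least 1.5-fold apart, the smallest differences and pairs of like genes, and Pck2, Ripk3, the nearest neighbours and others were added after their values were seen. Start windows came from RefSeq (GRCm38.p6). Alternatives changed the brightness minimum, probe set choice, scaling, variance prior, array weights, replicate block, bins and arrays kept. Marker sums add linear values over a list.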

Additional observations from a re-analysis of the deposited data

How the results depend on the processing

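No gene of the array was called under any full-array setting, and the other counts came from fewer arrays or a looser threshold. Over the 4 fits that left out an array, calls ran from 0 to 1455 higher and 0 to 2725 lower, and an adjusted p under 0.10 gave 7 higher and 10 lower. Mmp14 ran from -3.17 to -2.97 with an array left out, with limma adjusted p = 0.0045 and 0.0216 without knockout replicate 1 (-3.15) or 2 (-2.99), and 0.571 and 0.650 without wild-type replicate 1 or 2. With the replicate number as a block Mmp14 and Rnase2a kept their differences of -3.07 and -3.27 with adjusted p = 0.207, and calls stayed at 0 higher and 0 lower. Same-numbered arrays deviated from their group means with a correlation of -0.0885, so the numbers are not taken to pair the samples.

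The count of flanking genes without overlap ran from 32 to 41 of 46 with an array left out, where a lone array overlaps less often by construction (all tested genes, 70.4% to 89.5%). It was 17 of 30 without probe sets that can match several transcripts, or 56.7% against 57.8% of all genes, with fewer genes tested. Their share without overlap was 67.4% after cyclic loess and 69.6% after quantile normalisation, against 59.1% and 58.3% of all genes. With the mean of each gene's probe sets it was 67.4% against 59.5%. With a brightness minimum of 6.88 it went the other way, at 56.8% against 65.8%. The cause was not tested. The median size of difference of the flanking genes lay below that of all genes in 5 of 12 settings. In place of that median, the share at least 1.5-fold apart was 6.52%. The median at 1 to 25 places was 0.0887 with no brightness minimum, which adds dim genes, and that at 26 to 50 places was 0.0883 when all annotated gene types were counted, with 8 genes. Dhrs1 and Ndrg2 passed without knockout replicate 1 (-1.60 and 1.03).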
